A study of Mus musculus with 8 samples.

Results

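The genes described here are the noncoding genes of Ensembl that lie wholly inside the body of a protein-coding gene, on either strand, and share no exon base with any other gene. A member also had to reach 80 counts summed over the 8 heart libraries of the study. The rule was applied to GENCODE M21, an annotation on the GRCm38 build, and 536 genes met it. They are 536 of 141239 genes counted, 53465 of them from Ensembl, and of 6943 such nested genes at any count. The 536 members sat in 491 distinct host genes as the tables pair them. RNA was sequenced from hearts of 2-week-old mice of mixed strain, all with the Lmna knockout (Lmna-/-). Of the 8 libraries, 3 carry no further label and are called untreated (replicates 6, 7 and 8), and 5 are labelled Lmna-/-:AAV9 Lmna WT and are called AAV9 Lmna (replicates 1 to 5). Both groups thus carry the knockout, and in the AAV9 Lmna group wild-type Lmna was put back with AAV9, an adeno-associated virus used as a gene vector. The vector's promoter and dose, and whether each library is 1 animal, are not stated in the labels, and hearts with normal Lmna or an empty vector were not analysed here. The p-values therefore cover the spread from library to library only, part of which may be technical. All changes below are AAV9 Lmna over untreated, as log2 fold changes with the standard error (SE), and "called" means an adjusted p under 0.05 in edgeR's quasi-likelihood test over 26717 features.

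By GENCODE gene type, 333 members were processed pseudogenes and 18 transcribed processed pseudogenes. Such pseudogenes, called retrocopies below, are DNA copies of spliced messenger RNAs that were reverse transcribed and inserted elsewhere in the genome, so they resemble the exons of a parent gene. Another 73 members had the type TEC, GENCODE's tag for loci with transcript evidence that still await an experimental test. The small RNA genes were 46 snoRNAs and 5 scaRNAs, which guide the chemical modification of ribosomal and spliceosomal RNA, 20 miRNAs, which guide repression of messenger RNAs, and 13 snRNAs of the spliceosome type. The long noncoding RNAs were 11 antisense, 5 sense_intronic, 4 lincRNA and 1 processed_transcript genes, and 7 members were other pseudogenes. Many mammalian snoRNAs and some miRNAs are cut out of the introns of the genes that hold them, whereas a retrocopy or an antisense gene need not share its host's transcript. Lamins A and C, the products of Lmna, form filaments under the nuclear envelope and bind chromatin, and their loss causes heart muscle disease.

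The members shared features of position. Of the 536, 531 lay within 1 intron of the host and 494 had a single exon. The median length was 641 bases, the median intron that held a member 16522 bases, and the median distance to the nearest exon of any gene 2097 bases. The member and its host were on the same strand for 304 and on opposite strands for 231 members, and 1 host was not in the tables. Strand mattered for what could be read from the counts, since reads were counted without strand: reads of the nested gene, of unspliced host RNA and of unannotated RNA in the same intron cannot be told apart. For a retrocopy, reads of the parent that align better to the copy cannot be told apart from its own.

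For 341 of the 351 retrocopies a parent was found as the best match among coding transcripts other than the host. The changes of retrocopies are described below by their identity to the parent, so sequences are shown to make that identity visible. The stretch below spans 90 bases of the coding part of Gapdh, the glycolytic enzyme glyceraldehyde-3-phosphate dehydrogenase, which was the parent of 16 members, more than any other gene. Capitals mark bases that differ from Gapdh, and each retrocopy is written 5′ to 3′ along its own gene (GENCODE M21, GRCm38).
Gapdh: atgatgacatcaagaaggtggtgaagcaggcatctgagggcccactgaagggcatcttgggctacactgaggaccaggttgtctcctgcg
Gm13394: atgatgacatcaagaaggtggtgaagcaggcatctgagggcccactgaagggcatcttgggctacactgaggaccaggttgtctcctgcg
Gm8055: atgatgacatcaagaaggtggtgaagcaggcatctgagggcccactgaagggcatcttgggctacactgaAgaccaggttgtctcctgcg
Gm7985: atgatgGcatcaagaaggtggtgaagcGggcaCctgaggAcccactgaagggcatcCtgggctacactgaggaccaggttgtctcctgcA
Gm26956: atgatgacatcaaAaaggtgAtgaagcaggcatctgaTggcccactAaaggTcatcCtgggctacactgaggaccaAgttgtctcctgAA
Gm17800: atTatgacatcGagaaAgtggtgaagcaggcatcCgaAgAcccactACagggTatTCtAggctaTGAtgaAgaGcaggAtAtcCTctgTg
Gm13394 had no difference in this stretch, Gm8055 had 1, Gm7985 6, Gm26956 9 and Gm17800 22. Over their whole alignments the identity to Gapdh was 99.9%, 95.9%, 92.0%, 87.2% and 81.2% in that order.

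Further sequences show 2 copies that rose, 1 with few and 1 with more differences from its parent, and 1 that fell. Fabp3-ps1 copies Fabp3, the heart's fatty acid binding protein, and Gm17971 and Rps2-ps9 copy Rps2, a protein of the small ribosomal subunit. Capitals again mark differences from the parent.
Fabp3: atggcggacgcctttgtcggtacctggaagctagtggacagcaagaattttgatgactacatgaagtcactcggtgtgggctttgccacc
Fabp3-ps1: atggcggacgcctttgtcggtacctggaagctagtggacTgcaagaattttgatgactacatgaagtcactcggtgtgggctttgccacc
Rps2: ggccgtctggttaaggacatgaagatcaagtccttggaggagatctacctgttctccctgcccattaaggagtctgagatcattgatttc
Gm17971: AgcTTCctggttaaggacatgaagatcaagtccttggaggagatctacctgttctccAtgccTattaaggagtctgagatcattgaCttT
Rps2-ps9: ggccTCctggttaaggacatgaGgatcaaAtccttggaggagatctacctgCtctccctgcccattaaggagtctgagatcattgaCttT
Fabp3-ps1 differed from Fabp3 at 1 of these 90 bases, Gm17971 from Rps2 at 8 and Rps2-ps9 from Rps2 at 7.

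The libraries held 21439956 to 26492443 counts on features. Lmna itself was at 46.4, 68.7 and 32.3 CPM (counts scaled to the effective library size) in the untreated libraries 6, 7 and 8 and at 227 to 747 CPM in the 5 AAV9 Lmna libraries (log2 fold change 3.03 ± 0.46 SE, adjusted p = 0.0049 in edgeR). All 11 cardiomyocyte markers checked were above 1 CPM in all 8 libraries, and 3 of them were called higher and 1 lower. The 5 skeletal muscle markers summed to 1381, 1640 and 1431 CPM in untreated 6, 7 and 8 and to 2079 to 2794 CPM in the AAV9 Lmna libraries, without overlap, and 1 of the 5 was called higher. Only 2 of these 5 (Myh4, Myh1, Acta1, Tnnt3 and Ckm) were above 1 CPM in all 8 libraries. Which tissue or cells these sums come from was not tested, nor was the part of these markers in the results below. Other lists differed between single libraries: the 6 fibroblast markers summed to 1633 CPM in untreated 6 against 4303 to 6748 CPM in the others, and the 5 atrial markers to 977 CPM in untreated 8 against 59.1 to 177 CPM. Of the 5 atrial markers, 3 were called lower. The 5 macrophage markers summed to 87.4, 341 and 149 CPM in untreated 6, 7 and 8 and to 279 to 305 CPM in the AAV9 Lmna libraries. None of these 5 was called in edgeR's test. The 2 lung markers summed to 58.7 CPM in untreated 8 and to at most 1.5 CPM elsewhere. In bulk RNA, fewer cells of a type and less RNA per cell cannot be told apart. Reads outside every feature made up 24.7, 16.8 and 18.4% of assigned and unassigned reads in untreated 6, 7 and 8 and 12.1 to 12.8% in the AAV9 Lmna libraries, and the part of this difference in the results below was not tested.

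Of 531 members tested, 33 were called higher and 76 lower, or 6.21% and 14.3%, where 10.6% and 15% of all 26717 features were called higher and lower. Among the 15256 Ensembl genes tested alone, the background was 17.7% higher and 6.12% lower. The median log2 fold change was -0.23 over the members, 0.21 over Ensembl genes tested and -0.03 over all features, while the hosts of the members had a median of -0.01. The sign of the members' median turned with the filter on low counts: it was 0.14 at a floor of 160 counts and 0.09 over the 331 members with at least 1 CPM in 3 libraries. The CPM ranges of the groups did not overlap for 54 members that were higher and 96 that were lower with AAV9 Lmna, against 13.8% and 16% of all features and 22.5% and 6.84% of Ensembl genes. With scaling factors from Ensembl genes alone, which move log2 fold changes by -0.19, 9 members were called higher and 76 lower. After correction of each library for length and GC content, which moves them by -0.21, 5 were called higher. Without untreated 6 the count called lower was 34, without AAV9 Lmna 2 it was 49, and without untreated 7 the count called higher was 75, while without AAV9 Lmna 3 it was 21. Without untreated 6 and 8, 13 were called higher and 12 lower.

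**Figure D1:**
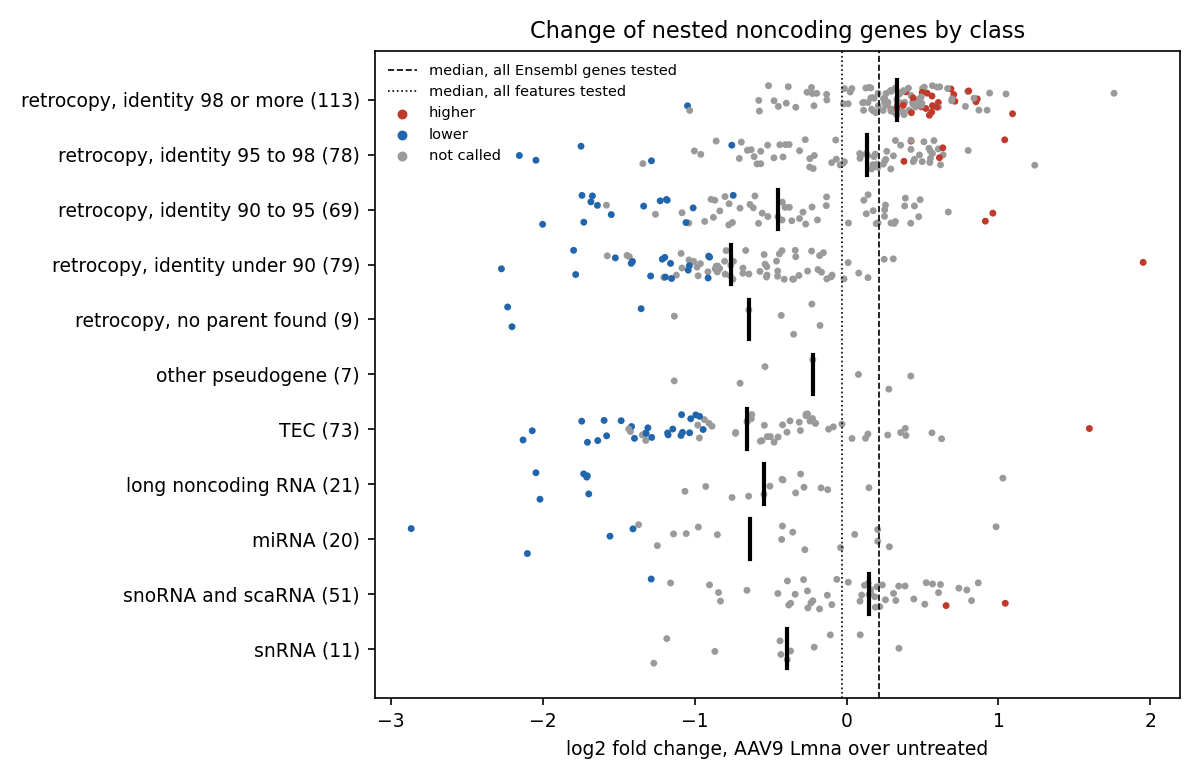
Log2 fold change (AAV9 Lmna over untreated) of each member tested, by class, with the number tested in brackets; points are genes, coloured by the call, vertical bars are medians, and the dashed and dotted lines are the medians of all Ensembl genes and of all features. The class medians run from 0.33 for retrocopies of 98% identity or more to -0.76 for those under 90%, and 25 of 73 TEC genes are called lower against 1 higher.

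Retrocopies were split by their identity to the parent at 98, 95 and 90%, borders that were set after the values had been seen, so the counts are a description. Of 113 retrocopies tested with 98% identity or more, 22 rose (19.5%) and 1 fell, with a median log2 fold change of 0.33. The share that rose was near the 17.7% of Ensembl genes called higher, and above the 10.6% of all features. Between 95 and 98%, 5 rose and 5 fell of 78, with a median of 0.14. Between 90 and 95%, 2 rose and 14 fell (20.3%) of 69, with a median of -0.45. Under 90%, 1 rose and 17 fell (21.5%) of 79, with a median of -0.76, where 6.12% of Ensembl genes and 15% of all features were called lower. Of the 80 members of this class, 22 reached a mean of 10 counts only in the untreated group and 0 only in the AAV9 Lmna group. Of the 58 tested that reached it in both groups, 15 fell and 1 rose. The rises at 98% or more depended on the scaling: with Ensembl genes alone 6 rose and 4 fell with a median of 0.15, and with the length and GC correction 2 rose and 5 fell with a median of 0.10. The falls under 90% numbered 18 and 15 under these scalings, and 5 without untreated 6. Over the 339 retrocopies with a parent, the Spearman correlation of log2 fold change with identity was 0.61, where the genes share the libraries and where identity also rose with abundance (Spearman correlation 0.56 with mean CPM).

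Median log2 fold changes of the hosts were -0.01, -0.01, -0.04 and -0.01 from the highest to the lowest identity class, and those of the parents 0.32, 0.37, 0.44 and 0.34. The change relative to the parent was tested within each library, a comparison added after the data were seen, over 1007 retrocopy and parent pairs inside and outside coding genes. Of 330 members in it, 3 rose and 34 fell relative to the parent, against 1.29% and 3.97% of all pairs, or 5.26% in either direction. The median change of the ratio to the parent was 0.08, -0.26, -0.90 and -1.19 on the log2 scale from the highest identity class to the lowest. Without untreated 6, 9 members fell relative to the parent, without untreated 7, 63 did, and without AAV9 Lmna 1, 2, 3 or 4 or untreated 8, 13 to 16 did.

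Retrocopies outside coding genes, which met the other conditions of the rule, are the nearest group for comparison. Under 90% identity, the 21 tested had a median log2 fold change of 0.32 and a median ratio to the parent of -0.16, against -0.76 and -1.19 for the members. Between 90 and 95%, the 87 outside had medians of 0.26 and -0.01, against -0.45 and -0.90. At 98% or more the 306 outside had medians of 0.32 and 0.04, close to 0.33 and 0.08 for the members. Under 90%, the median identity was 87.3% outside and 82.1% for the members. In this lowest class 2 of the 21 outside fell (9.52%), where 21.5% of the members tested did. Its median log2 fold changes at a mean under 1 CPM were -0.75 over 55 members tested and 0.16 over 12 outside. At 1 to 5 CPM they were -0.77 over 21 members and 0.36 over 7 outside. At 5 CPM or more they were -0.98 over 3 members and -1.05 over 2 outside. At a mean under 1 CPM, the 33 members tested of 90 to 95% identity had a median of -0.77 and 7 fell. Of the 70 members of this class at any level, 12 reached a mean of 10 counts only in the untreated group. The 36 outside under 1 CPM had a median of 0.25, and 0 fell in edgeR's test, 0 at an unadjusted p under 0.05, and 0 in DESeq2 or limma-voom. At 1 to 5 CPM the medians were -0.16 over 28 members and 0.25 over 42 outside, and at 5 CPM or more 0.29 over 8 members and 0.26 over 9 outside. The difference between inside and outside was not itself tested, since the members were chosen on these counts.

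**Figure D2:**
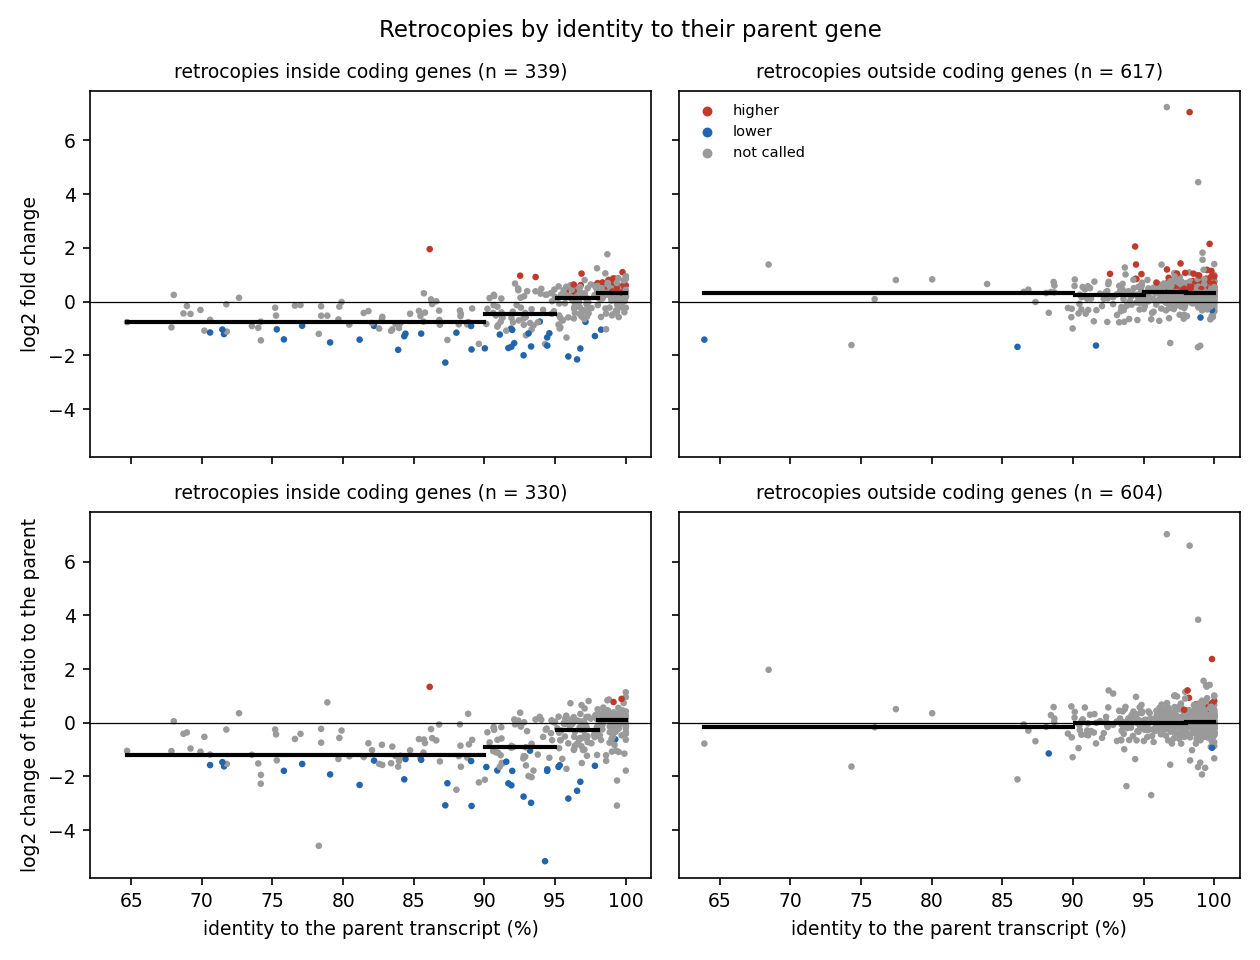
Identity to the parent transcript (percent, horizontal) against the log2 fold change (top) and the log2 change of the ratio to the parent (bottom), for retrocopies inside (left) and outside (right) coding genes; points are genes coloured by the call of each test and bars are medians of the 4 identity classes. Inside coding genes the medians of the log2 fold change fall from 0.33 to -0.76 with falling identity, and outside they stay between 0.26 and 0.34.

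Among individual retrocopies, the most abundant were near-identical copies of genes of energy metabolism and protein handling. Fabp3-ps1 (chr10:86731987-86732388, intron 8 of Ttc41) was the most abundant member, at 921, 1811 and 2097 CPM in untreated 6, 7 and 8 and 2849, 2930, 3244, 2738 and 2768 CPM in AAV9 Lmna 1 to 5. All 5 AAV9 Lmna libraries were above all 3 untreated ones (log2 fold change 0.85 ± 0.22 SE, adjusted p = 0.021 in edgeR), and untreated 6 was the lowest. Fabp3 itself rose more (log2 fold change 1.34, adjusted p = 0.022 in edgeR), and the ratio of the copy to the parent fell by 0.62 on the log2 scale (log2 change of the ratio -0.62 ± 0.16 SE, adjusted p = 0.048 in edgeR). The call of Fabp3-ps1 was lost with Ensembl genes alone, with the length and GC correction and with no filter on low counts, and that of its ratio to Fabp3 without each of the libraries except untreated 7. Its host Ttc41 had a log2 fold change of -0.29 and was not called.

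Gm30970 (chr14:79106039-79106401, intron 39 of Vwa8) copies Atp2a2, the calcium pump of the sarcoplasmic reticulum, and was at 230, 203 and 234 CPM in untreated 6, 7 and 8 and 304, 300, 320, 345 and 335 CPM in AAV9 Lmna 1 to 5. It rose (log2 fold change 0.53 ± 0.09 SE, adjusted p = 0.0045 in edgeR) without overlap between the groups. Vcp-rs, a copy of the ATPase gene Vcp, was at 324, 373 and 299 CPM in untreated 6, 7 and 8 and 409, 447, 453, 422 and 422 CPM in AAV9 Lmna 1 to 5 (log2 fold change 0.37 ± 0.10 SE, adjusted p = 0.018 in edgeR). For both copies the ratio to the parent was not called, with changes of 0.14 and -0.00 on the log2 scale. Both rises were lost with Ensembl genes alone and with the length and GC correction, and that of Vcp-rs also without untreated 8.

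Gm15920 copies Ndufa12, a subunit of respiratory complex I, and rose from 133, 149 and 128 CPM to 180 to 239 CPM (log2 fold change 0.52 ± 0.11 SE, adjusted p = 0.01 in edgeR). The call of Gm15920 was lost with Ensembl genes alone and with the length and GC correction. Mpc1-ps copies Mpc1, the mitochondrial pyruvate carrier, and was at 201, 178 and 166 CPM in untreated 6, 7 and 8 and 242, 231, 232, 228 and 211 CPM in AAV9 Lmna 1 to 5 (log2 fold change 0.33 ± 0.09 SE, adjusted p = 0.025 in edgeR). Its parent had a log2 fold change of -0.55, so that Mpc1-ps was 1 of 3 members that rose relative to the parent (log2 change of the ratio 0.89 ± 0.15 SE, adjusted p = 0.011 in edgeR); the call of this ratio was lost without untreated 6. The rise of Mpc1-ps itself was lost with both of these scalings and without AAV9 Lmna 2, 3 or 4 or untreated 8. Gm11478, a copy of the ribosomal protein gene Rpl13a in Vmp1, was at 87.2, 164 and 136 CPM and 146 to 162 CPM and was not called. Gm10819 (chr19:16267061-16267621, intron 2 of Gnaq) copies Pebp1, an inhibitor of Raf kinase, inside Gnaq, the gene of a G protein subunit. It was at 21.2, 32.5 and 24.1 CPM in untreated 6, 7 and 8 and 42.7, 46.2, 50.8, 48.7 and 46.7 CPM in AAV9 Lmna 1 to 5 (log2 fold change 0.86 ± 0.14 SE, adjusted p = 0.0037 in edgeR), with no overlap, and its call held in every alternative listed in the closing section.

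Another 2 risers named by the rule were less like their parents, and other risers are named further below. Gm17971 (chr1:55066264-55067069, intron 3 of Coq10b), whose sequence is shown above, was at 1.19, 1.79 and 0.953 CPM in untreated 6, 7 and 8 and 4.02, 6.59, 6.403, 5.37 and 3.08 CPM in AAV9 Lmna 1 to 5. It rose (log2 fold change 1.95 ± 0.32 SE, adjusted p = 0.0039 in edgeR) and also rose relative to its parent Rps2 (log2 change of the ratio 1.34 ± 0.28 SE, adjusted p = 0.025 in edgeR) and to its host Coq10b, a gene of coenzyme Q biology (log2 change of the ratio 1.27 ± 0.26 SE, adjusted p = 0.0078 in edgeR). The call of the ratio to Rps2 was lost without AAV9 Lmna 2 or 3 or untreated 6. Oaz2-ps copies Oaz2, an antizyme that controls polyamine synthesis, inside Manba, a lysosomal mannosidase gene, and was at 4.06, 4.904 and 5.17 CPM in untreated 6, 7 and 8 and 6.87, 9.59, 8.54, 9.96 and 9.42 CPM in AAV9 Lmna 1 to 5 (log2 fold change 0.91 ± 0.18 SE, adjusted p = 0.0066 in edgeR). Of 13 members whose parent is Rps2, Rps2-ps9 moved the other way, from 1.68, 0.725 and 1.498 CPM to 0.379 to 0.859 CPM, where the ranges overlap (log2 fold change -1.19 ± 0.37 SE, adjusted p = 0.039 in edgeR). Its call was lost with the length and GC correction and without 6 of the 8 libraries in turn.

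**Figure D3:**
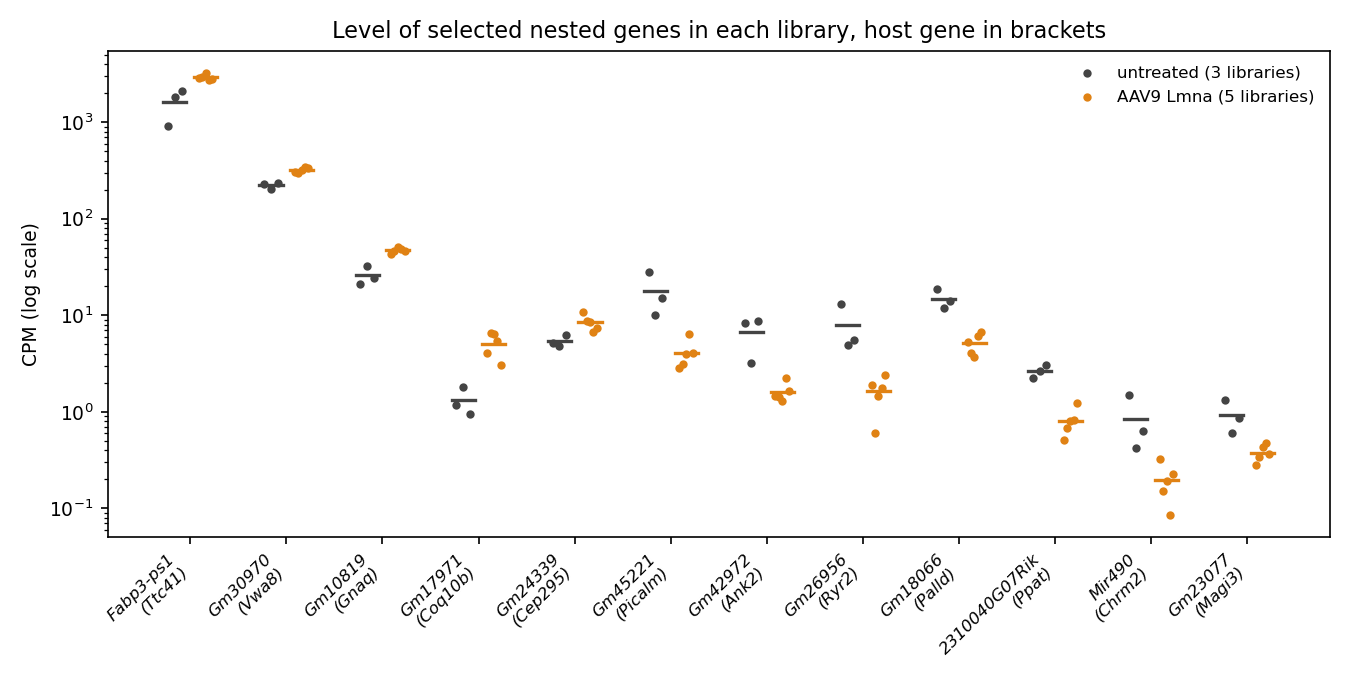
CPM (log scale) of 12 members in each of the 8 libraries, with the host in brackets; points are libraries and lines are group means. Fabp3-ps1, at 921 to 3244 CPM, is the most abundant. The 12 were picked for display, and the groups do not overlap for any of them. Over all 536 members the groups do not overlap for 54 that were higher and 96 that were lower. Of all features 13.8% were apart and higher and 16% apart and lower.

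The falling retrocopies included several copies of Gapdh. Of the 16 members with Gapdh as parent, 6 fell and 0 rose in edgeR's test (0 rose at an unadjusted p under 0.05, in DESeq2 or in limma-voom), with a median log2 fold change of -0.90, while Gapdh itself had 0.73. Without untreated 6, 3 of the 16 fell. Among all features 15% were called lower, and among Ensembl genes 6.12%. The floor of the rule was set on counts summed over both groups. The 6 can thus hold members that passed it through the untreated group, and how many did was not counted. Relative to Gapdh 10 of the 16 fell, where 3.97% of all retrocopy and parent pairs did. The 17 Gapdh retrocopies outside coding genes had a median of 0.31, with 1 risen, but their median identity to Gapdh was 99.7%, against 91.6% for the 16 members. This family was picked after its values had been seen. Gm26956 (chr13:11939558-11940543, intron 2 of Ryr2) lies in Ryr2, the calcium release channel of heart muscle, on the opposite strand, and was at 13.1, 4.95 and 5.49 CPM in untreated 6, 7 and 8 and 1.92, 0.606, 1.47, 1.76 and 2.4 CPM in AAV9 Lmna 1 to 5. It fell (log2 fold change -2.27 ± 0.41 SE, adjusted p = 0.0057 in edgeR), and fell relative to Ryr2 (log2 change of the ratio -1.81 ± 0.33 SE, adjusted p = 0.0053 in edgeR). All 5 AAV9 Lmna libraries were below all 3 untreated ones, and untreated 6 was the highest.

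Gm16177, in Lonp2, a peroxisomal protease gene, was at 1.11, 1.11 and 0.999 CPM in untreated 6, 7 and 8 and 0.374, 0.265, 0.332, 0.0859 and 0.272 CPM in AAV9 Lmna 1 to 5 (log2 fold change -2.0002 ± 0.39 SE, adjusted p = 0.0065 in edgeR). Gm8055, in Mfsd4b1, was at 1.11, 0.725 and 0.681 CPM in untreated 6, 7 and 8 and 0.187, 0.303, 0.0949, 0.172 and 0.226 CPM in AAV9 Lmna 1 to 5 (log2 fold change -2.04 ± 0.41 SE, adjusted p = 0.0073 in edgeR). Gm7985, Gm12266 and Gm17800, in Daam1, Tom1l2 and Pgm5, had log2 fold changes of -1.06, -1.29 and -1.42 and were called. Without untreated 6 the calls of these last 3 were lost, and that of Gm17800 also without AAV9 Lmna 1, 2, 3 or 5 or untreated 8. Gm13394, the copy that is 99.9% identical to Gapdh, behaved otherwise: it was at 14.4, 461 and 310 CPM in untreated 6, 7 and 8 and 388, 204, 196, 200 and 5.62 CPM in AAV9 Lmna 1 to 5, so untreated 6 and AAV9 Lmna 5 stood far below the 6 others, and it was not called.

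Copies of Ldha, a lactate dehydrogenase gene, numbered 4, with a median of -0.91 while Ldha had a log2 fold change of 0.44. Of the 4, 3 fell, where 15% of all features and 6.12% of Ensembl genes were called lower. The count was 1 without AAV9 Lmna 1, 2, 3, 4 or 5 or without untreated 6 or 8, when Gm17815 in Rprd2 and Gm7997 in Gab1 lost their calls. Gm13315 (chr2:14721134-14722124, intron 3 of Cacnb2) in Cacnb2, a calcium channel subunit gene, was at 4.14, 2.004 and 2.27 CPM in untreated 6, 7 and 8 and 0.607, 1.02, 0.901, 0.902 and 0.7698 CPM in AAV9 Lmna 1 to 5, with no overlap (log2 fold change -1.73 ± 0.30 SE, adjusted p = 0.0043 in edgeR). Over all features 10.6% were called higher and 15% lower, and over Ensembl genes 17.7% and 6.12%. Of 81 members with a ribosomal protein gene as parent, 2 rose (2.47%) and 7 fell (8.64%). Their median log2 fold change was -0.27, against 0.29 for the 78 tested outside coding genes, of which 7 rose and 0 fell (0 also at an unadjusted p under 0.05, in DESeq2 and in limma-voom). These sets differed in median identity, 96.4% inside and 98.7% outside, and in median level, 1.05 and 6.72 CPM. The 30 ribosomal members of 98% identity or more had a median of 0.28. Without AAV9 Lmna 2 or without untreated 6, 1 ribosomal member fell. The 7 ribosomal members that fell can also hold some that passed the floor of the rule through the untreated group.

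The retrocopy with the smallest p among those that fell was Gm18066 (chr8:61819743-61821516, intron 2 of Palld), a copy of the lysyl-tRNA synthetase gene Kars that is 79.1% identical to it. It lies in Palld, the gene of the actin-binding protein palladin, on the same strand. Gm18066 was at 18.7, 11.9 and 14.03 CPM in untreated 6, 7 and 8 and 5.33, 4.05, 3.7, 6.14 and 6.66 CPM in AAV9 Lmna 1 to 5, without overlap (log2 fold change -1.52 ± 0.22 SE, adjusted p = 0.0025 in edgeR). Palld fell too, by 1.08 on the log2 scale, and the ratio of Gm18066 to Palld was not called (log2 change of the ratio -0.48 ± 0.25 SE, adjusted p = 0.21 in edgeR), whereas that to Kars fell (log2 change of the ratio -1.92 ± 0.25 SE, adjusted p = 0.0041 in edgeR). Gm16580, a copy of the poly(A)-binding protein gene Pabpc1 in the splicing gene Luc7l, was at 18.6, 23.4 and 21.7 CPM in untreated 6, 7 and 8 and 14.2, 11.03, 12.05, 13.7 and 12.05 CPM in AAV9 Lmna 1 to 5 (log2 fold change -0.76 ± 0.13 SE, adjusted p = 0.0041 in edgeR). Pabpc1 fell by 0.68 and Luc7l did not, and the ratio to Luc7l fell (log2 change of the ratio -1.02 ± 0.21 SE, adjusted p = 0.0075 in edgeR). Gm6109, a copy of the ribosomal protein gene Rpl30 in Jmy, was at 0.984, 0.768 and 0.862 CPM and 0.142 to 0.227 CPM, without overlap (log2 fold change -2.15 ± 0.35 SE, adjusted p = 0.0038 in edgeR).

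The TEC genes were called lower more often than the background. Of 73 tested, 25 were called lower (34.2%) and 1 higher (1.37%). Of the 73, 9 reached a mean of 10 counts only in the untreated group and 2 only in the AAV9 Lmna group. Of the 62 that reached it in both groups, 21 were called lower and 0 higher in edgeR's test. The background was 6.12% lower and 17.7% higher among Ensembl genes, and 26.9% lower and 1.31% higher among the 11461 NONCODE genes tested, a catalogue of noncoding transcripts counted in the same tables. Over all features 15% were called lower and 10.6% higher. The groups were apart for 26 TEC genes that were lower and 1 that was higher. Of all features 16% were apart and lower and 13.8% apart and higher, and of Ensembl genes 6.84% and 22.5%. The median log2 fold change of the TEC genes was -0.65, against -0.11 for their hosts. TEC genes lay mostly on the host's strand (65 of 73), had a single exon in all 73, and were long for members, with a median of 2194 bases, and low in GC, with a median of 43.3%. Among the 28 with a mean of 1 to 5 CPM, 15 fell. The count called lower was 24 with Ensembl genes alone, 20 with the length and GC correction, 13 without untreated 6 and 4 without untreated 6 and 8. Over the 72 TEC genes with a tested host, the change of the gene and of its host had a Spearman correlation of 0.38, and relative to the host 14 fell and 1 rose. Of all 861 nested pairs, 10.9% fell relative to the host and 5.46% rose.

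Gm42972 (chr3:127266673-127272289, intron 3 of Ank2) lies in Ank2, the gene of ankyrin-B, which anchors ion transporters in heart muscle. It was at 8.28, 3.198 and 8.81 CPM in untreated 6, 7 and 8 and 1.45, 1.44, 1.28, 2.23 and 1.63 CPM in AAV9 Lmna 1 to 5, and the groups did not overlap (log2 fold change -2.07 ± 0.32 SE, adjusted p = 0.0032 in edgeR). Ank2 had a log2 fold change of -0.17 and was not called, and the ratio of Gm42972 to Ank2 fell (log2 change of the ratio -1.92 ± 0.31 SE, adjusted p = 0.0029 in edgeR). Gm45221 (chr7:90185927-90188198, intron 12 of Picalm) lies in Picalm, a clathrin assembly gene, and was at 28.2, 10.1 and 15.2 CPM in untreated 6, 7 and 8 and 2.85, 3.11, 3.94, 6.398 and 4.08 CPM in AAV9 Lmna 1 to 5 (log2 fold change -2.13 ± 0.34 SE, adjusted p = 0.004 in edgeR). Gm45223 in intron 1 of the same host was at 14.7, 12.5 and 6.72 CPM and 4.89 to 7.01 CPM, and it fell too (log2 fold change -0.99 ± 0.23 SE, adjusted p = 0.013 in edgeR), with ranges that overlapped. The 3′ ends of these 2 models are shown because a transcript end usually carries the signal AATAAA, which would stand in capitals.
Gm42972: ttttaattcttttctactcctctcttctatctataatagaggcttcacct
Gm45221: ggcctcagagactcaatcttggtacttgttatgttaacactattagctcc
These are the last 50 bases at chr3:127266673-127266722 (minus strand) and chr7:90188149-90188198 (plus strand), and neither holds AATAAA. The hexamer, searched on the gene's strand, was in the last 50 bases of 7 of 73 TEC members (9.59%), 2 of the 25 called lower (8.00%), 328 of all 1891 nested TEC genes (17.3%) and 6 of 350 retrocopies (1.71%). No match says only that these letters are not in this window.

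Gm48958 in Samd4, the gene of an RNA-binding repressor, was at 22.6, 13.5 and 12.98 CPM in untreated 6, 7 and 8 and 8.22, 5.27, 6.59, 7.601 and 5.12 CPM in AAV9 Lmna 1 to 5 (log2 fold change -1.32 ± 0.22 SE, adjusted p = 0.004 in edgeR). Samd4 fell as well, by 0.39, and the ratio fell (log2 change of the ratio -0.94 ± 0.24 SE, adjusted p = 0.021 in edgeR), a call lost without AAV9 Lmna 2 or untreated 6. In Med13l, a Mediator subunit gene that fell by 0.74, both TEC members Gm43788 and Gm43275 fell, by 1.17 and 1.58, and their ratios to Med13l were not called. In Camk2d, a calcium-dependent kinase of heart muscle, Gm43011 was at 2.62, 2.81 and 3.31 CPM in untreated 6, 7 and 8 and 0.607, 1.21, 1.04, 0.859 and 2.08 CPM in AAV9 Lmna 1 to 5 (log2 fold change -1.32 ± 0.34 SE, adjusted p = 0.018 in edgeR), and Gm42515 fell by 1.41 (adjusted p = 0.042 in edgeR), while Camk2d had -0.12. Gm44668 in intron 1 of Mef2a, a muscle transcription factor gene, fell by 0.97. The calls of Gm43788 and Gm43275 were lost without untreated 6, that of Gm43011 without untreated 8, and those of Gm42515 and Gm44668 without several single libraries. The exception was Gm47625 (chr10:116284549-116286343, intron 3 of Ptprb) in Ptprb, a receptor phosphatase of endothelium. It was at 0.328, 0.384 and 0.136 CPM in untreated 6, 7 and 8 and 0.654, 1.14, 0.617, 1.03 and 0.906 CPM in AAV9 Lmna 1 to 5 and rose (log2 fold change 1.598 ± 0.42 SE, adjusted p = 0.019 in edgeR), while Ptprb fell by 0.33; its call was lost without untreated 8 and with both scalings on Ensembl genes.

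Of 21 long noncoding RNAs, 6 fell (28.6%, where 15% of all features and 26.9% of NONCODE genes were called lower) and 0 rose in edgeR's test (0 rose at an unadjusted p under 0.05, in DESeq2 or in limma-voom), with a median of -0.54 against -0.00 for their hosts. Of the 21, 4 reached a mean of 10 counts only in the untreated group and 0 only in the AAV9 Lmna group. The 6 that fell can thus hold genes that passed the floor through the untreated group. In an antisense orientation, 2310040G07Rik (chr5:76928368-76947758, intron 2 of Ppat) lies in Ppat, an enzyme gene of purine synthesis. It was at 2.21, 2.64 and 3.09 CPM in untreated 6, 7 and 8 and 0.514, 0.682, 0.806, 0.816 and 1.22 CPM in AAV9 Lmna 1 to 5, without overlap (log2 fold change -1.71 ± 0.28 SE, adjusted p = 0.004 in edgeR). Ppat rose by 0.40, and the ratio of 2310040G07Rik to Ppat fell by 2.11 on the log2 scale (log2 change of the ratio -2.11 ± 0.32 SE, adjusted p = 0.0024 in edgeR). Gm10847, antisense in Lrch1, was at 2.297, 1.62 and 1.63 CPM in untreated 6, 7 and 8 and 0.654, 0.379, 0.427, 0.644 and 0.679 CPM in AAV9 Lmna 1 to 5 (log2 fold change -1.73 ± 0.29 SE, adjusted p = 0.0041 in edgeR), and Lrch1 had -0.03. Gm47272, antisense in Atp9b, fell by 1.70 (adjusted p = 0.013 in edgeR), a call that was lost without untreated 6.

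On the host's strand, Gm47921 in Zmiz1, a transcriptional coactivator gene, was at 1.15, 1.11 and 0.681 CPM in untreated 6, 7 and 8 and 0.327, 0.152, 0.237, 0.172 and 0.317 CPM in AAV9 Lmna 1 to 5 (log2 fold change -2.02 ± 0.38 SE, adjusted p = 0.0059 in edgeR). Zmiz1 fell by 1.71, and the ratio was not called (log2 change of the ratio -0.36 ± 0.41 SE, adjusted p = 0.58 in edgeR). Gm49223 in Tmem161b was at 1.19, 0.853 and 1.09 CPM and 0.187 to 0.474 CPM (log2 fold change -1.71 ± 0.36 SE, adjusted p = 0.009 in edgeR). Zfp469, a gene of lincRNA type in M21 inside the long coding model Gm20388, was at 18.4, 6.396 and 14.8 CPM in untreated 6, 7 and 8 and 4.02, 3.22, 2.99, 2.49 and 3.26 CPM in AAV9 Lmna 1 to 5 (log2 fold change -2.04 ± 0.29 SE, adjusted p = 0.0025 in edgeR), and the 2 other members in Gm20388, Gm42047 and Gm16378, were not called. The most abundant uncalled antisense gene, Gm47547 in Dydc2, was at 11.9, 15.1 and 30.5 CPM and 7.34 to 23.4 CPM.

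Small RNA genes gave fewer calls than all features. Of the 82 tested, 2.44% were called higher and 6.10% lower, against 10.6% and 15% of all features. Among Ensembl genes 17.7% were called higher and 6.12% lower, so the share called lower was near theirs. Libraries of this kind hold few RNAs as short as a mature miRNA, so counts on a miRNA or snoRNA gene can come from longer RNA across the locus, and they are given as counts on the locus. Of 51 snoRNAs and scaRNAs, 2 rose and 1 fell, with a median log2 fold change of 0.15 beside 0.27 for their hosts, and 45 of 51 lay on the host's strand. Over the 50 with a tested host, the Spearman correlation with the host's change was -0.01. The 3 that were called and the most abundant one are shown, with box motifs in capitals.
Gm24339: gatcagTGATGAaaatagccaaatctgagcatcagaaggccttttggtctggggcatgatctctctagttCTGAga
Snora41: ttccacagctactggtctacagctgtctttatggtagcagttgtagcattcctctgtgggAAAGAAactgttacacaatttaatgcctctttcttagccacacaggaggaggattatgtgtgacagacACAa
Gm23077: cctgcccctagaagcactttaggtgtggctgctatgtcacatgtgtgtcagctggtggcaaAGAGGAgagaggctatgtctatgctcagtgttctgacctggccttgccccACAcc
Gm26397: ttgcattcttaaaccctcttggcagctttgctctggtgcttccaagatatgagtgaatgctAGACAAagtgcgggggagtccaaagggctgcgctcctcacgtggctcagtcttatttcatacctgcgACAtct
In Gm24339 the capitals are TGATGA, the core of the C box, and CTGA, the D box. In the other 3 they are ACA near the 3′ end and the match to ANANNA nearest the middle, the pattern of the H box. TGATGA in the leading 25 bases with CTGA in the last 20 was found in 6 of 51 snoRNA and scaRNA members (11.8%) and none of 73 TEC genes, and ACA in the last 8 bases in 38 (74.5%) and 10 (13.7%), all on the gene's strand. A match is a description of letters, not of a working box.

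Gm24339 (chr9:15326464-15326539, intron 21 of Cep295) lies in Cep295, a centriole gene. It was at 5.13, 4.78 and 6.17 CPM in untreated 6, 7 and 8 and 10.9, 8.75, 8.44, 6.699 and 7.38 CPM in AAV9 Lmna 1 to 5 (log2 fold change 0.66 ± 0.19 SE, adjusted p = 0.031 in edgeR), with no overlap, while Cep295 fell by 0.43, and its ratio to Cep295 rose (log2 change of the ratio 1.07 ± 0.24 SE, adjusted p = 0.011 in edgeR). Scarna9, in the same intron, was at 0.533, 0.341 and 0.636 CPM and 0.515 to 1.04 CPM and was not called. Snora41 in Eef1b2, a translation elongation factor gene, was at 0.4101, 0.768 and 0.681 CPM in untreated 6, 7 and 8 and 1.31, 1.402, 1.75, 0.902 and 1.04 CPM in AAV9 Lmna 1 to 5 (log2 fold change 1.04 ± 0.34 SE, adjusted p = 0.042 in edgeR). Gm23077 (chr3:104201110-104201225, intron 1 of Magi3) lies antisense in Magi3 and was at 1.31, 0.597 and 0.862 CPM in untreated 6, 7 and 8 and 0.2803, 0.341, 0.427, 0.472 and 0.362 CPM in AAV9 Lmna 1 to 5 (log2 fold change -1.29 ± 0.36 SE, adjusted p = 0.025 in edgeR). Magi3 rose by 0.32, so Gm23077 was 1 of 3 members that fell against a host that rose. The call of Gm24339 was lost with Ensembl genes alone and without AAV9 Lmna 1, 2 or 3 or untreated 6, that of Gm23077 with the length and GC correction, with no filter and without AAV9 Lmna 2 or untreated 6 or 8, and that of Snora41 without 6 of the 8 libraries in turn.

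The abundant small RNA loci were not called. Gm26397 in Tomm20, a mitochondrial import receptor gene, was at 87.2, 130 and 138 CPM in untreated 6, 7 and 8 and 142, 104, 121, 93.3 and 94.2 CPM in AAV9 Lmna 1 to 5 and was not called (adjusted p = 0.70 in edgeR). Gm25788 in Pabpc4, Gm25291 in Sec24a, Gm25835 in Eif4a1 and the scaRNA Gm22442 in Chd3 had log2 fold changes of 0.09, 0.10, 0.14 and -0.23, with untreated 6 at or near the lowest level in each. Of the 11 snRNAs tested, 0 were called in edgeR's test, while 2 were lower at an unadjusted p under 0.05, 0 in DESeq2 and 1 in limma-voom. Their median was -0.39, and the most abundant, Gm24041 in Tmem65, was at 2.83, 1.71 and 1.09 CPM and 1.14 to 1.78 CPM. The share of all features called was 10.6% higher and 15% lower.

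Of 20 loci typed miRNA, 4 fell (20%, where 15% of all features were called lower) and 0 rose in edgeR's test (1 rose at an unadjusted p under 0.05, 0 in DESeq2 and limma-voom), with a median of -0.64 beside -0.21 for their hosts. Of the 20 loci, 4 reached a mean of 10 counts only in the untreated group and 0 only in the AAV9 Lmna group. The count that fell can thus hold loci that passed the floor through the untreated group. Without untreated 6, 1 fell, and without untreated 7, 9 did. RefSeq (GRCm38.p6) gave a mature sequence that can be shown for 11 of them, and those of loci discussed here follow, with the seed, bases 2 to 8, in capitals.
mmu-miR-490-3p: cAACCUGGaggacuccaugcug
mmu-miR-490-5p: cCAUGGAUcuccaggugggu
mmu-miR-378b: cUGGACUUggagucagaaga
mmu-miR-26b-5p: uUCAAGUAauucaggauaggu
mmu-let-7c-5p: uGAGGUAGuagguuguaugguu
mmu-miR-99a-5p: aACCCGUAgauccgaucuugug
No 2 of these 6 share a seed. Mir490 (chr6:36421742-36421825, intron 2 of Chrm2) lies in Chrm2, the muscarinic receptor that slows the heart, on the same strand. Its locus held 36, 10 and 14 counts in untreated 6, 7 and 8 and 7, 4, 4, 2 and 5 in AAV9 Lmna 1 to 5, or 1.48, 0.426 and 0.636 CPM in untreated 6, 7 and 8 and 0.327, 0.152, 0.1897, 0.0859 and 0.226 CPM in AAV9 Lmna 1 to 5 (log2 fold change -2.101 ± 0.51 SE, adjusted p = 0.015 in edgeR). Chrm2 had a log2 fold change of 0.13, and the ratio of Mir490 to Chrm2 fell (log2 change of the ratio -2.200 ± 0.44 SE, adjusted p = 0.0075 in edgeR). Mir378b, antisense in the RNA-binding gene Msi2, held 39, 24 and 20 counts in untreated 6, 7 and 8 and 8, 6, 8, 9 and 14 in AAV9 Lmna 1 to 5 (log2 fold change -1.56 ± 0.37 SE, adjusted p = 0.013 in edgeR). Gm24302, antisense in Pdzd2, held 151, 19 and 23 counts in untreated 6, 7 and 8 and 9, 12, 4, 11 and 6 in AAV9 Lmna 1 to 5, with untreated 6 far above the others (log2 fold change -2.87 ± 0.65 SE, adjusted p = 0.013 in edgeR). The calls of Mir490, Mir378b and Gm24302 were lost without untreated 6.

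Other miRNA loci, picked after their values were seen, were not called. Mir26b in Ctdsp1, a phosphatase gene, was at 0.4101, 0.426 and 0.499 CPM in untreated 6, 7 and 8 and 1.12, 0.7199, 1.23, 0.601 and 0.7698 CPM in AAV9 Lmna 1 to 5 (log2 fold change 0.98, adjusted p = 0.062 in edgeR), with no overlap. Mirlet7c-1 and Mir99a, antisense in intron 1 of Gm11146, were lower by -1.14 and -0.98, with adjusted p = 0.071 and 0.070 in edgeR. Mir133a-1, antisense in Mib1, had -1.37 with an adjusted p of 0.055 in edgeR. Gm24270 in Peak1 was the most abundant uncalled miRNA locus, at 7.38, 12.8 and 20.4 CPM and 8.97 to 13.3 CPM.

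Hosts were set against members within each library, which removes the scaling. Of 478 members tested in this way, 25 rose and 60 fell relative to the host, with a median of -0.33. Over all 861 nested genes of any type with a tested host, 5.46% rose and 10.9% fell, with a median of -0.21, and the 150 nested coding genes tested had a median of -0.04. Without untreated 6, 26 members fell relative to the host, and without untreated 6 and 8, 4 did. The changes of member and host had a Spearman correlation of 0.19 over 478 pairs, which share the libraries.

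**Figure D4:**
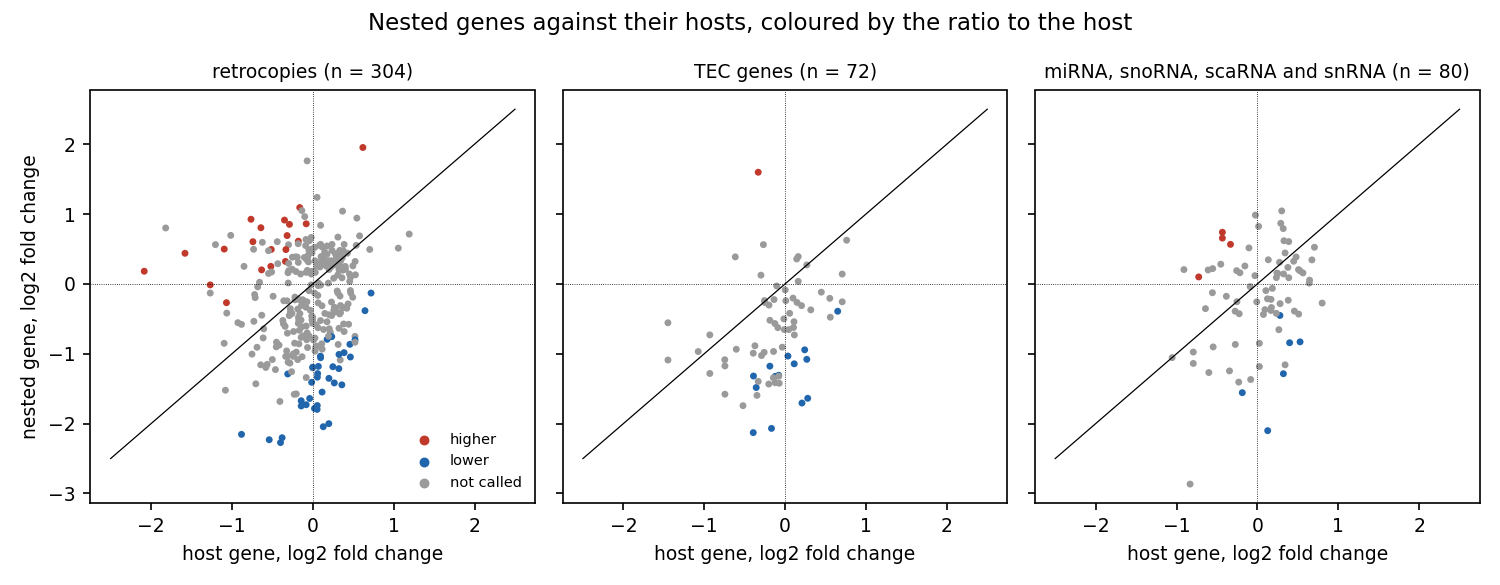
Log2 fold change of the host (horizontal) and of the nested gene (vertical) for retrocopies, TEC genes and small RNA genes with a tested host; points are pairs, coloured by the call of the ratio of the nested gene to the host, and the diagonal marks equal change. Of 72 TEC genes, 14 are called lower than the host and 1 higher.

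Of the 76 members that fell, 21 had a host that fell, 3 a host that rose, 51 a host that was not called and 1 a host that was not tested. Of the 33 that rose, 2 had a host that rose and 3 one that fell. The members called against the host were 2310040G07Rik, Gm23077 and Gm17956, which fell in Ppat, Magi3 and Magi3, and Gm47625, Gm12191 and Gm24339, which rose in Ptprb, Cnot6 and Cep295. Gm17956, a copy of the ribosomal protein gene Rpsa that is 71.6% identical to it, was at 1.89, 0.938 and 1.32 CPM in untreated 6, 7 and 8 and 0.467, 0.644, 0.759, 0.773 and 0.317 CPM in AAV9 Lmna 1 to 5 (log2 fold change -1.21 ± 0.35 SE, adjusted p = 0.03 in edgeR). Gm12191, a copy of Rpl30 inside Cnot6, a deadenylase gene, was at 29.5, 35.3 and 39.7 CPM in untreated 6, 7 and 8 and 54.2, 52.1, 49.99, 49.3 and 39.4 CPM in AAV9 Lmna 1 to 5 (log2 fold change 0.49 ± 0.13 SE, adjusted p = 0.021 in edgeR), while Cnot6 fell by 0.51. The calls of Gm17956 and Gm12191 were lost without several single libraries, untreated 6 among them.

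Some ratios were called while the member was not. BC002163 copies Ndufs5, a complex I subunit gene, inside Zbtb20, a transcription factor gene, and was at 45.6, 123 and 77.8 CPM in untreated 6, 7 and 8 and 78.7, 79.9, 84.9, 81.03 and 82.2 CPM in AAV9 Lmna 1 to 5. It was not called, but Zbtb20 fell by 1.27 and the ratio rose (log2 change of the ratio 1.31 ± 0.28 SE, adjusted p = 0.0087 in edgeR). Gm14328, a copy of Fabp5 in Cfap53, had a rise of the ratio of 1.67 with Cfap53 down by 1.10. The falls of the ratio with the smallest p were those of 2310040G07Rik, Gm7584, Gm42972, Gm13315 and Gm16177. Gm7584, a copy of the chromatin gene Cdyl in Txlnb, was at 9.52, 4.22 and 3.904 CPM in untreated 6, 7 and 8 and 3.04, 1.86, 1.42, 1.76 and 1.36 CPM in AAV9 Lmna 1 to 5, and its ratio to Txlnb fell by 1.56 (log2 change of the ratio -1.56 ± 0.24 SE, adjusted p = 0.0024 in edgeR).

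Host lists drawn up for heart biology held few members. In hosts of calcium handling and ion channels there were 11 members in 7 of 39 listed genes. Of these 5 fell and 0 rose in edgeR's test (1 rose at an unadjusted p under 0.05, 1 in DESeq2 and 0 in limma-voom), with a median of -1.16 beside -0.08 for the hosts, and 4 of 11 fell relative to the host. Over all features 15% were called lower. The count was 3 without AAV9 Lmna 1, 2, 3 or 5 or without untreated 6 or 8. The 5 were Gm26956, Gm13315, Gm43011, Gm42515 and Gm18981, the last a retrocopy in Cacna1c, a calcium channel gene, which itself fell by 0.64. In sarcomere and cytoskeleton hosts 2 of 4 fell, Gm42972 and Gm18066, with a median of -1.24. In chromatin and transcription hosts 2 of 10 fell, Gm44668 and Gm15599, with a median of -0.07. In splicing and translation hosts 1 of 3 fell, Gm16580. In membrane signalling hosts 1 rose, Gm5903 in Fgfr2, and 1 fell, Gm7997 in Gab1, of 6. In metabolic hosts 1 of 3 rose, Gm17971. The calls of Gm44668, Gm15599 and Gm7997 were lost without untreated 6, among other libraries, and that of Gm5903 with Ensembl genes alone and with the length and GC correction. These lists were chosen with earlier results of these data known.

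Several hosts held 3 members. In intron 3 of Cacnb2 lay Gm13315, which fell, and Gm13311 and Gm13268, which had log2 fold changes of -1.34 and 0.16 and were not called. These copy Ldha, Snu13 and Rpl26 with 91.7%, 95.8% and 98.2% identity, while Cacnb2 had -0.08. In Acyp2, an acylphosphatase gene that rose by 0.52, the retrocopies Gm12096, Gm12097 and Gm12098 had -0.75, -0.80 and -0.84. Of these 0 were called in edgeR's test, 1 was lower at an unadjusted p under 0.05, 1 in DESeq2 and 0 in limma-voom. Gm12097 was called relative to Acyp2 (log2 change of the ratio -1.35 ± 0.34 SE, adjusted p = 0.021 in edgeR), but not without AAV9 Lmna 2 or untreated 6.

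Summed over members, 0.521, 0.751 and 0.724% of Ensembl counts fell on the members in untreated 6, 7 and 8 and 0.784 to 0.847% in the AAV9 Lmna libraries. Without Fabp3-ps1 these shares were 0.423, 0.555 and 0.502%, and 0.508 to 0.533%, so the groups overlapped. The TEC members took 275, 169 and 177 CPM of Ensembl counts in the untreated libraries and 99.1 to 111 in the others. Retrocopies under 90% identity took 201, 142 and 154 and 91.6 to 111, and miRNA loci 48.4, 29.0 and 43.3 and 21.5 to 27.7. These 3 sums were highest in untreated 6, the library with the most reads outside features and the highest share of counts on NONCODE genes (4.11%, against 2.89 and 3.15% in the other 2 untreated and 2.07 to 2.27% in the AAV9 Lmna libraries). Retrocopies of 98% identity or more took 3483, 5748 and 5412 and 6287 to 6839, with untreated 6 lowest. The snoRNAs and scaRNAs took 330, 547 and 584 and 412 to 560, so the groups overlapped. What part these library measures have in the changes of single members was not tested.

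**Figure D5:**
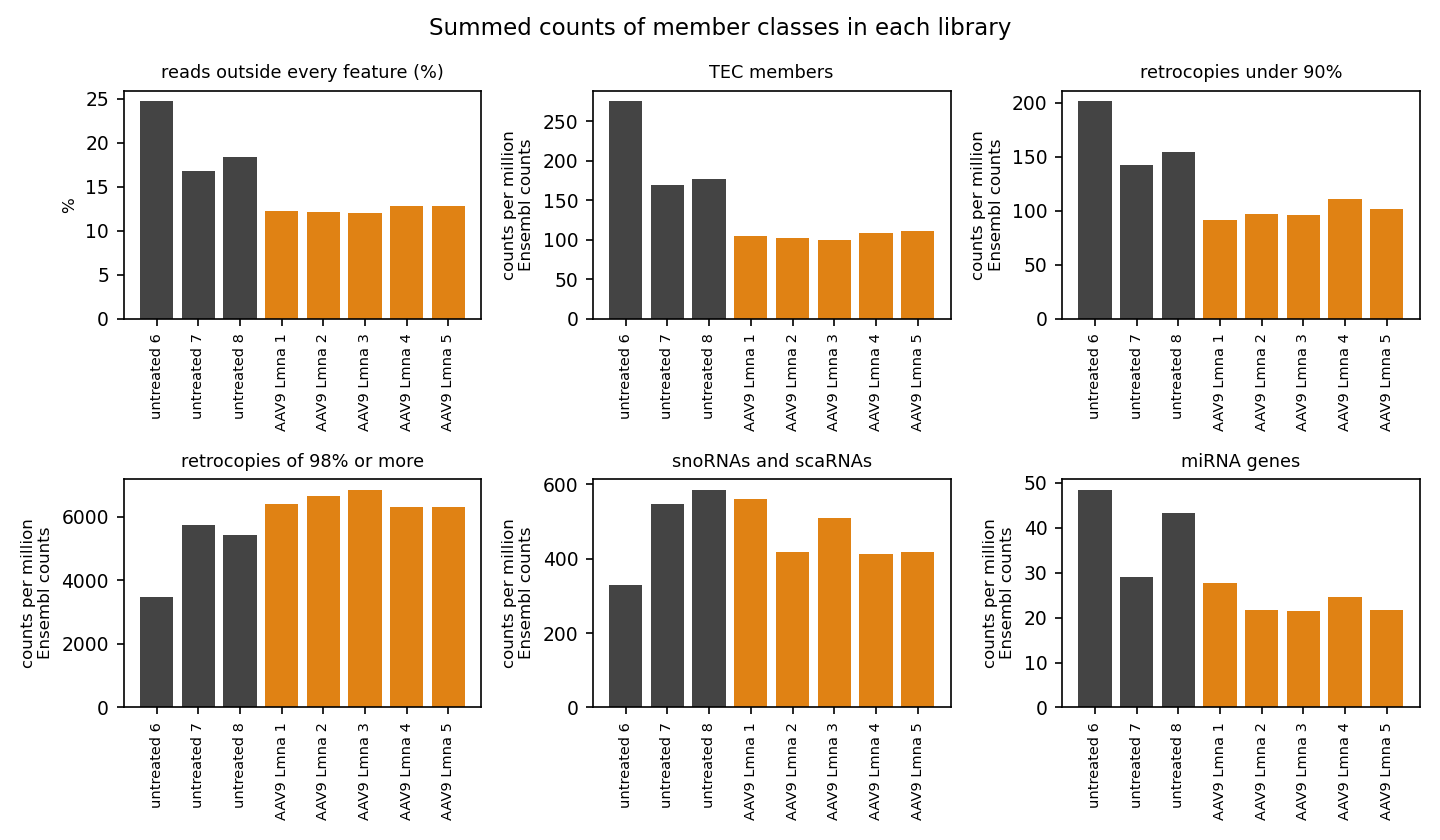
Percent of reads outside every feature (top left) and summed CPM (of Ensembl counts) of 5 member classes in each of the 8 libraries. Bars are single libraries, untreated in dark grey and AAV9 Lmna in orange. Untreated 6 has 24.7% of reads outside features and the highest TEC sum, 275, and the lowest sum of retrocopies of 98% identity or more, 3483.

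The floor of 80 counts let some members in through 1 group. A mean of at least 10 counts in both groups was reached by 452 members, of which 32 rose and 51 fell, while 77 reached it only in untreated and 7 only in AAV9 Lmna libraries. Just inside the floor were Gm15560 and Gm18115 with 80 counts, at 0.445 and 0.694 CPM on average in untreated and 0.433 and 0.256 CPM in AAV9 Lmna libraries. Just outside were Gm24401 and Gm24878 with 79 counts, at 0.580 and 0.494 CPM and 0.327 and 0.392 CPM. At a floor of 160 counts, which 334 genes passed, the median log2 fold change over members was 0.14 instead of -0.23.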

How the data were processed

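The authors deposited raw counts of reads per Ensembl or NONCODE gene, 1 table per library, labelled as made without strand. The submitters' processing notes name TopHat2, HTSeq, limma, edgeR, GRCm38 and mm10, without versions or roles. The 5 summary lines of each table stayed out of library sizes. They set aside 31188497 to 40285518 alignments per library as not unique. Of the 53465 Ensembl identifiers, 53360 matched GENCODE M21, and NONCODE coordinates were not used. Features were tested with edgeR 4.0.16 in R 4.3.3, using filterByExpr, TMM factors over all features, robust quasi-likelihood tests and Benjamini-Hochberg adjustment. CPM used TMM library sizes. Introns are numbered 5′ to 3′ between the host's merged exons.

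The host was the shortest coding gene around the member. Ratios to host and parent were tested in edgeR with log(count + 0.5) of host or parent as offset. Parents came from BLAST 2.17.0 (E-value at most 1e-10, coverage of at least 50%). On simulated counts, 38% of 100 genes changed 2-fold and 77% of 100 changed 4-fold were recovered among 26717 features, and 38% and 82% of 50 each among 847 nested pairs. Of the calls, 6.5% and 9.09% were of unchanged genes or pairs. The changed genes of the feature simulation were drawn from all features, not from members. In the data 25.7% of features were called, a far larger share than was changed in that simulation, so recovery in the data can differ.

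Members, gene lists and host lists were chosen with earlier results of these data known. Named were the 8 members with the highest mean CPM. In each gene type with at least 5 members tested, the 3 falling and 2 rising called members with the smallest p and the most abundant uncalled member were named. So were the 5 falling and 5 rising members called relative to the host with the smallest p, up to 5 called against the host's direction, up to 2 called members per listed host, the 3 hosts with most members, small RNAs (all where 10 or fewer, otherwise the 5 most abundant) and the 2 genes nearest the floor on each side. This selected 66 members, of which 1 is not reported here, and 21 more were named after their values were seen. Alternatives were RLE factors, DESeq2 1.42.0, limma 3.58.1, other low-count filters, Ensembl genes alone, a length and GC correction, other floors, distances, strands and hosts, and libraries left out.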

Additional observations from a re-analysis of the deposited data

Results flagged for a closer look

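Of 86 named members, 3 had 1 AAV9 Lmna library whose gap to the nearest other library, as a share of the group's range, was above Dixon's critical value of 0.71 for 5 libraries. Chance gives such a gap in about 1 group in 20. Gm15920, the Ndufa12 copy in Rabgef1, was at 239 CPM in AAV9 Lmna 5 and 180 to 193 CPM in the other 4. Gm11346, a retrocopy without a parent match in Ripor2, was at 0.748 CPM in AAV9 Lmna 1 and 0.0474 to 0.215 CPM in the other 4. Its call as lower was lost without AAV9 Lmna 2, 3, 4 or 5 or untreated 6 or 8. Gm9493, a copy of the ribosomal protein gene Rps7 in 1700028P14Rik, was at 21.5 CPM in AAV9 Lmna 3, at 4.44 to 5.84 CPM in the other 4 and at 4.02 to 4.95 CPM in the untreated libraries.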

How the results depend on the processing

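No paired analysis was possible because the groups share no replicate numbers. Of 51 named log2 fold changes that were called, 11 stayed called in every alternative: those of Gm45221, Gm48958, Gm45223, Zfp469, Gm47921, 2310040G07Rik, Gm16580, Gm10819, Gm18066, Gm17971 and Oaz2-ps. Of 36 called ratios to the host, 3 did: those of Gm16580, 2310040G07Rik and Gm7584. Members called higher (33) were 9 with Ensembl genes alone, 5 with the length and GC correction, 21 to 75 with 1 library left out and 13 without untreated 6 and 8. Members called lower (76) were 34 to 100 with 1 library left out and 12 without untreated 6 and 8. Members higher relative to the host (25) were 12 to 26 with 1 library left out and 0 in edgeR's test without untreated 6 and 8 (37 at an unadjusted p under 0.05), and members lower (60) 26 to 71 and 4. Members higher relative to the parent (3) were 0 (without untreated 6, with 9 at an unadjusted p under 0.05) to 5 and 0 (6 at an unadjusted p), and members lower (34) 9 to 63 and 2. The rule gave 334 members at a floor of 160 counts, 354 at 1000 bases or more from other exons, 231 on the opposite strand only and 304 on the same strand only. The median log2 fold change of members reversed at the floor of 160 counts (0.14) and with at least 1 CPM in 3 libraries (0.085). Fewer libraries or members enter these alternatives by construction, and for both scalings the cause was not tested. In simulated counts, with fewer features changed than were called in the data, 38% of 2-fold changes were recovered. A member that was not called may therefore still have changed by this much.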

Other observations

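For 3 retrocopies, picked after their values were seen, libraries of the same group differed by over 2-fold. Rpl15-ps2, a copy of Rpl15 in Tcf12, was at 9.34, 10.8 and 10.7 CPM in AAV9 Lmna 1, 3 and 4 and at 0.796 to 2.54 CPM in the 5 other libraries. Gm13394, the Gapdh copy in Cfap77, was at 14.4 CPM in untreated 6 and 5.62 CPM in AAV9 Lmna 5 and at 196 to 461 CPM in the 6 others. Gm17669, a copy of Rpl29 in Spire1, was at 0.499 to 1.09 CPM in 3 libraries, untreated 7 and 8 and AAV9 Lmna 5, and at 2.91 to 4.13 CPM in the others. Other members, such as Fabp3-ps1 and Gm26956 above, also differed by this much within a group. The labels give the strain as mixed, and its part in these levels was not tested.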
